A study of Rattus norvegicus with 26 samples.

Results

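Ugt2b, Ugt2b1 and Ugt2b35 are 3 UDP-glucuronosyltransferase genes of the rat Ugt2b cluster, and 6 probe sets on the array name 1 of them and no other gene. Ugt2b has 3 of these probe sets, Ugt2b35 has 2 and Ugt2b1 has 1, out of 8740 non-control probe sets that name 4736 single genes in all. The comparison is with the Ugt1a locus, for which 14 probe sets name Ugt1a genes alone. Primary hepatocytes of female Sprague Dawley rats were cultured from 2 pools of 3 animals and exposed for 48 hours before total RNA was hybridised to RG-U34A arrays, a short-oligonucleotide rat array. TCDD, the most potent dioxin, was given at 0.01, 1 and 10 pM and at 0.1, 1, 10 and 316 nM. PCB 126, a coplanar dioxin-like biphenyl, was given at 1 and 10 pM and at 0.1, 1, 10, 1000 and 10000 nM. The vehicle, shared by both chemicals, was 0.5% DMSO. Of 26 arrays, 11 came from pool 1 and 15 from pool 2: 12 received TCDD, 12 received PCB 126 and 2 were vehicle. The doses of 10 pM and 1 nM had 1 array each per chemical, both of pool 2, and the vehicle and the other doses had 1 array of each pool.

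UDP-glucuronosyltransferases are enzymes of the endoplasmic reticulum that join glucuronic acid to small lipophilic molecules so that they can be excreted in bile and urine. Ugt2b enzymes of rat liver act on steroids, bile acids and many drugs, and each is encoded by a gene of its own. Ugt1a enzymes, which conjugate bilirubin, phenols and thyroxine, come from 1 locus whose alternative first exons are joined to shared later exons. The aryl hydrocarbon receptor (AhR), the receptor of dioxins, drives some Ugt1a first exons, Ugt1a6 being the classic example in rat liver, and it drives Cyp1a1, used here as a readout of exposure on each array. Cultured hepatocytes hold few other cells, and with RNA from whole cultures fewer cells of a type and less RNA per cell cannot be told apart.

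The 3 genes lie among 13 Ugt2 genes and pseudogenes on chromosome 14, and the Ugt1a locus is on chromosome 9. In the RefSeq order along chromosome 14, Ugt2b follows Ugt2a1 and Ugt2a3, Ugt2b35 lies between Ugt2b37 and Ugt2b7, and Ugt2b1 lies between Ugt2b7l1 and Ugt2b10. The promoters, from 250 bases before the start site to 50 after it, are shown for the 3 members and for Ugt1a6. They were searched for shared letters and for GCGTG, the core motif that the AhR is known to bind. Sequences are from RefSeq (GRCr8), 5′ to 3′. Capitals mark, in Ugt2b and Ugt2b35, the longest run of letters they share, in Ugt2b1 the longest run common to all 3 genes, and in Ugt1a6 the AhR core motif.

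Ugt2b, chr14:20985199-20985498, plus strand: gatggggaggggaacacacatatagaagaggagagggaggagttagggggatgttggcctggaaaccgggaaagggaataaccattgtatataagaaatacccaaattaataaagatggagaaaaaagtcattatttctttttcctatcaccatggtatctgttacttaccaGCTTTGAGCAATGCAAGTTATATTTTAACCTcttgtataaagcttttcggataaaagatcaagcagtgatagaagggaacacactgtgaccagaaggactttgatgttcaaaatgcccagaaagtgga
Ugt2b35, chr14:21208191-21208490, plus strand: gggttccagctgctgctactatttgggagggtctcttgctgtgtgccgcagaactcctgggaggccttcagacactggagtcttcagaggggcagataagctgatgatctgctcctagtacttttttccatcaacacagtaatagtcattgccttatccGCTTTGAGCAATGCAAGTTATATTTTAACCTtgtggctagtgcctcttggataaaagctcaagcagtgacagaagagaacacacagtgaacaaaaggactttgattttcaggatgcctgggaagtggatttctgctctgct
Ugt2b1, chr14:21378632-21378931, plus strand: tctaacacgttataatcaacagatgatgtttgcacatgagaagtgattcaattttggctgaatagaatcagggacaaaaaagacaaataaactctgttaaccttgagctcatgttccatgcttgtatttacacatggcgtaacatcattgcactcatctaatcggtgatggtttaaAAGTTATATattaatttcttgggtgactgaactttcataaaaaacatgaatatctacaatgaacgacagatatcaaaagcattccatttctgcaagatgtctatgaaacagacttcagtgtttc
Ugt1a6, chr9:96194768-96195067, plus strand: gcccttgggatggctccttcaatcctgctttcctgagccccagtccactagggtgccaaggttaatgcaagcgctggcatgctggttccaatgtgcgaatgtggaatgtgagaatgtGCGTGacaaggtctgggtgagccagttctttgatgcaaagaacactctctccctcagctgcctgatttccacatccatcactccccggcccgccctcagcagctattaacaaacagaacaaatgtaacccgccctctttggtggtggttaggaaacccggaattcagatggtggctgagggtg

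Ugt2b and Ugt2b35 shared a run of 31 letters that began 78 and 91 bases before their start sites, and 5 of 33469 rat promoters (0.0149%) held it, those of Ugt2b15 and Ugt2b37 included. The longest run common to all 3 genes was AAGTTATAT, held on either strand by 0.218% of all promoters and by 7 of 9 Ugt2b promoters. The AhR core motif GCGTG was in 1 of 9 Ugt2b promoters, that of Ugt2b34l1, in 4 of 7 Ugt1a promoters including Ugt1a6, and in 29.7% of all promoters. None of the 3 member promoters held GCGTG in this window, and these matches are descriptions of letters, not of bound sites. Whether they bear on the dose slopes was not tested.

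The arrays separated first by pool. Array medians averaged 3.58 ± 0.07 log2 in pool 2 and 3.85 ± 0.08 log2 in pool 1 (SD, n = 15 and 11), and the beta-actin 3′ minus 5′ difference, a measure of RNA length, averaged 1.51 ± 0.22 in pool 2 and 0.82 ± 0.12 in pool 1. The array of PCB 126 at 1 pM in pool 2 stood apart, with a Cyp1a1 level of 10.80 log2 against 3.21 in pool 1 at the same dose and 7.91 in pool 2 at 10 pM. The array of TCDD at 316 nM in pool 2 stood apart in the Ugt1a probe set D38066exon_s_at, at 10.84 log2 against 8.37 at 10 nM in the same pool. The array of TCDD at 0.01 pM in pool 2 had Cyp1a1 at 5.66 log2, against 3.28 in the vehicle array of that pool. Without the first 2 of these arrays, a choice made after seeing the data, the slopes called for Ugt2b and Ugt2b35 in the next paragraphs kept their calls, and that of Ugt2b1 with TCDD lost its call. The array of TCDD at 10 pM in pool 2 had the highest actin difference of all, 2.19, and without it the 4 member slopes called with TCDD kept their calls.

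Ugt2b fell as the dose of either chemical went up. In its probe set rc_AI169708_s_at, the slope was -0.28 ± 0.06 log2 per decade of TCDD (SE, limma over 26 arrays with pool as a block, adjusted p = 0.0108) and -0.28 ± 0.06 per decade of PCB 126 (adjusted p = 0.00905). A decade is 1 unit of log10 dose, and adjusted p values are Benjamini-Hochberg values over 5197 probe sets. With TCDD most of the drop lay between the low doses and 0.1 to 1 nM: over arrays at 0.1 nM and above alone, a limit chosen after seeing the data, the slope was -0.08 (adjusted p = 0.841). Over the same doses of PCB 126 it was -0.30 (adjusted p = 0.265).

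The values are given by array within each pool. In pool 1, the TCDD series of rc_AI169708_s_at read 7.71 at 0.01 pM, 8.16 at 1 pM, 5.69 at 0.1 nM, 6.14 at 10 nM and 5.77 log2 at 316 nM, against 8.24 in vehicle. In pool 2 it read 10.21 at 0.01 pM, 9.52 at 1 pM, 9.94 at 10 pM, 9.38 at 0.1 nM, 8.44 at 1 nM, 8.28 at 10 nM and 8.79 log2 at 316 nM, against 9.88 in vehicle. All 7 TCDD arrays from 0.1 nM up lay below the vehicle of their own pool, by 0.50 to 2.55 log2, and the 5 arrays under 0.1 nM lay between 0.53 below and 0.33 above it. The largest distance was that of 0.1 nM in pool 1, and at the same dose pool 2 was only 0.50 lower.

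The PCB 126 series of the same probe set in pool 1 read 8.56 at 1 pM, 7.81 at 0.1 nM, 5.64 at 10 nM, 6.41 at 1000 nM and 6.15 log2 at 10000 nM, against the same 8.24 in vehicle. In pool 2 it read 9.15 at 1 pM, 9.60 at 10 pM, 9.59 at 0.1 nM, 9.14 at 1 nM, 8.68 at 10 nM, 8.58 at 1000 nM and 7.60 log2 at 10000 nM, against 9.88 in vehicle. The 6 arrays from 10 nM up lay 1.20 to 2.59 log2 below their own vehicle, and the 6 arrays under 10 nM lay between 0.74 below and 0.33 above it. In pool 2 the PCB 126 values went down step by step from 10 pM to 10000 nM, and its arrays at 1 pM and 1 nM, at 0.73 and 0.74 below vehicle, lay lower against vehicle than that of 0.1 nM TCDD in the same pool, at 0.50 below. Within each pool and each chemical the arrays of the high doses did not overlap those of the low doses and the vehicle, the narrowest gap being that between 0.1 nM TCDD at 9.38 and 1 pM at 9.52 in pool 2. The dose boundaries in these counts were set after the values of this probe set were seen, so the counts are descriptions. The share of all probe sets that separate at these boundaries was not computed.

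**Figure D1:**
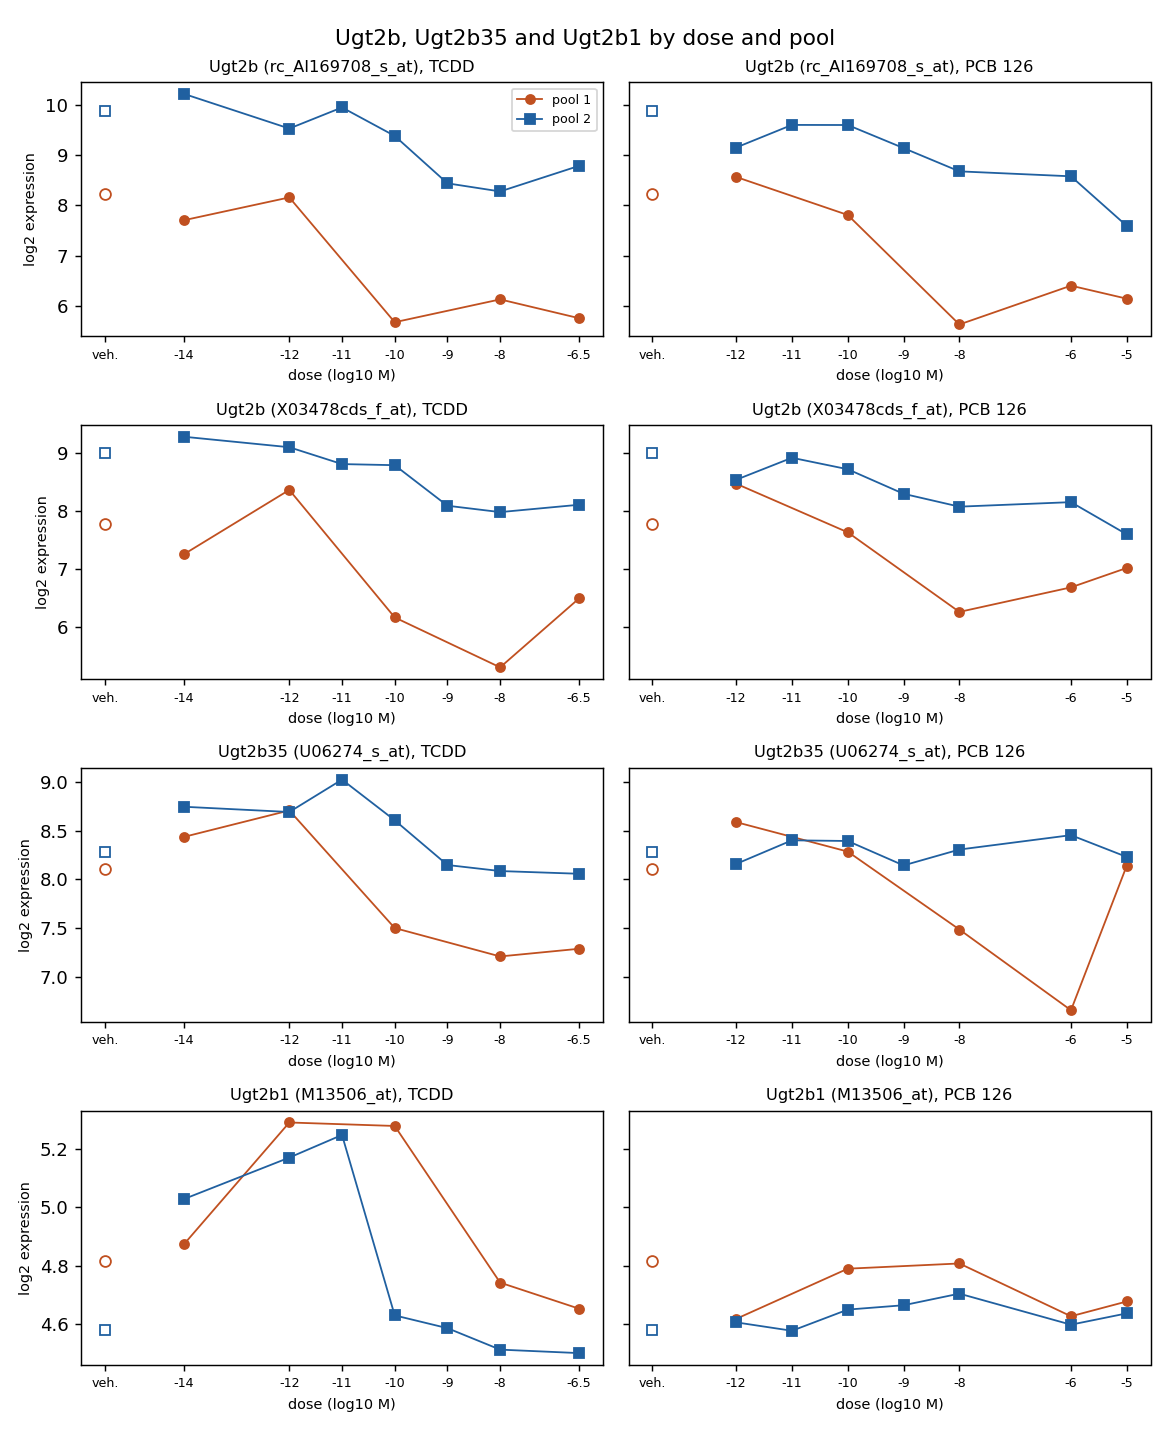
Log2 expression (vertical axis) of 4 probe sets of Ugt2b, Ugt2b35 and Ugt2b1 against dose in log10 M (horizontal axis), TCDD on the left and PCB 126 on the right, with 1 point per array; circles are pool 1, squares pool 2, and open symbols the vehicle arrays, which both columns share. Ugt2b (rc_AI169708_s_at) lay 0.50 to 2.55 log2 below its own vehicle on the 7 arrays from 0.1 nM TCDD up, and Ugt2b1 (M13506_at) lay above it on the 5 TCDD arrays under 0.1 nM. The boundary at 0.1 nM was set after the values of rc_AI169708_s_at were seen. The share of all probe sets with such counts was not computed.

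The bright probe set X03478cds_f_at of Ugt2b followed the same course and was less certain. Its slope was -0.22 ± 0.06 log2 per decade of TCDD (SE, limma, adjusted p = 0.0406) and -0.18 ± 0.06 per decade of PCB 126 (adjusted p = 0.105). With TCDD in pool 1 it read 7.26, 8.37, 6.17, 5.30 and 6.496 log2 from the lowest dose to the highest, against 7.79 in vehicle. With TCDD in pool 2 it read 9.28, 9.10, 8.81, 8.79, 8.09, 7.98 and 8.11 log2, against 9.01 in vehicle. With PCB 126 it read 8.47, 7.64, 6.26, 6.68 and 7.02 log2 in pool 1, and 8.54, 8.92, 8.72, 8.30, 8.08, 8.16 and 7.60 log2 in pool 2. All 7 TCDD arrays from 0.1 nM up and all 6 PCB 126 arrays from 10 nM up lay below their own vehicle. These dose boundaries were set on rc_AI169708_s_at, whose values run with those of this probe set, so the counts are no separate support. The share of all probe sets with such counts was not computed. The suffix _f of this platform marks probes that can read several members of a gene family, so signal from other Ugt2b genes cannot be told apart here. Deviations of these 2 probe sets from their pool means correlated at r = 0.90 over the 26 arrays, which share doses and pools.

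The other Ugt2b probe set, M74439mRNA_i_at, was dim and showed no dose course. Its median was 3.61 log2, below the filter value of 3.71, and it ran from 3.22 to 5.26. Its slopes were 0.04 ± 0.05 with TCDD and -0.05 ± 0.05 log2 per decade with PCB 126 (SE, limma, adjusted p = 0.802 and 0.582). It passed the filter on low values, which asks for a second-highest value above 3.71, as did the other 5 member probe sets.

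Ugt2b35 fell with TCDD in its bright probe set, U06274_s_at. It had a slope of -0.16 ± 0.04 log2 per decade of TCDD (SE, limma, adjusted p = 0.0417) and of -0.07 ± 0.04 per decade of PCB 126 (adjusted p = 0.402). With TCDD in pool 1 it read 8.44, 8.71, 7.50, 7.21 and 7.29 log2 from the lowest dose up, against 8.10 in vehicle. With TCDD in pool 2 it read 8.75, 8.69, 9.02, 8.61, 8.15, 8.09 and 8.06 log2, against 8.28 in vehicle. The slope with TCDD thus covers low doses above vehicle as well as high doses below it: all 5 arrays under 0.1 nM lay 0.33 to 0.75 above their own vehicle, and 6 of 7 arrays from 0.1 nM up lay below it. The boundary at 0.1 nM was set on the values of rc_AI169708_s_at. The share of all probe sets with such counts was not computed. With PCB 126 U06274_s_at read 8.59, 8.28, 7.48, 6.65 and 8.14 log2 in pool 1, and between 8.14 and 8.45 on all 7 arrays of pool 2. The low values with PCB 126 were 2 arrays of pool 1, at 10 nM and 1000 nM. Deviations of U06274_s_at from its pool means correlated at r = 0.72 with those of rc_AI169708_s_at and at 0.77 with those of X03478cds_f_at. Whether the probe sets with the suffix _s also read other Ugt2b genes was not tested. The falls of Ugt2b and Ugt2b35 can thus not be taken as separate results. The dim probe set U06273_i_at, between 3.96 and 4.61 log2, had slopes of -0.01 ± 0.01 with TCDD and 0.01 ± 0.01 with PCB 126 (adjusted p = 0.768 and 0.527). Its deviations followed the array medians at r = 0.97 over the 26 arrays.

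Ugt2b1, known in rat liver for conjugating morphine and testosterone, was low, and at low TCDD doses it lay above vehicle, as U06274_s_at did. M13506_at read 4.87, 5.29, 5.28, 4.74 and 4.65 log2 from the lowest TCDD dose up in pool 1, against 4.82 in vehicle. In pool 2 it read 5.03, 5.17, 5.25, 4.63, 4.58, 4.51 and 4.498 log2, against 4.58 in vehicle. All 5 TCDD arrays under 0.1 nM lay above their own vehicle, by 0.06 to 0.67, and of the 7 from 0.1 nM up 4 lay below it. The array of 0.1 nM in pool 1 lay 0.47 above it. The dose boundary was set on rc_AI169708_s_at, and the share of all probe sets with such counts was not computed. With PCB 126 the 12 arrays lay between 4.58 and 4.81 log2, about the range of the 2 vehicle arrays. The slope was -0.08 ± 0.02 log2 per decade of TCDD (SE, limma, adjusted p = 0.0438) and 0.00 ± 0.02 per decade of PCB 126 (adjusted p = 0.997). The slope with TCDD therefore does not stand for a level below vehicle at the high doses, where the difference was -0.10 ± 0.15 log2 (adjusted p = 0.883).

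Over the group, 4 of 6 probe sets were called lower in the TCDD trend, where 1.46% of all 5197 probe sets were, and 0 were called higher, where 1.64% were. With PCB 126, 1 of 6 was called lower, where 2.69% of all were, and 0 higher, where 1.56% were. The median slope of the 6 was -0.12 with TCDD and -0.06 with PCB 126, beside -0.01 and 0.01 log2 per decade over all probe sets. The 4 TCDD calls include 3 with adjusted p between 0.0406 and 0.0438, and leaving out 1 array moved the count to between 0 and 4. Of 26 such refits, X03478cds_f_at kept its call in 16, U06274_s_at in 14 and M13506_at in 7. Without TCDD at 316 nM of pool 1 the count was 0, and the adjusted p of rc_AI169708_s_at was then 0.0501. That array gave the only leave-one-out loss of the TCDD call of rc_AI169708_s_at, kept in 25 of 26, and its PCB 126 call was lost without 1 pM of pool 1 and without 10000 nM of pool 2. Without pool as a block, a setting in which the gap between pools enters the error, no member was called in either trend (adjusted p of rc_AI169708_s_at 0.779 with TCDD and 0.493 with PCB 126).

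**Figure D2:**
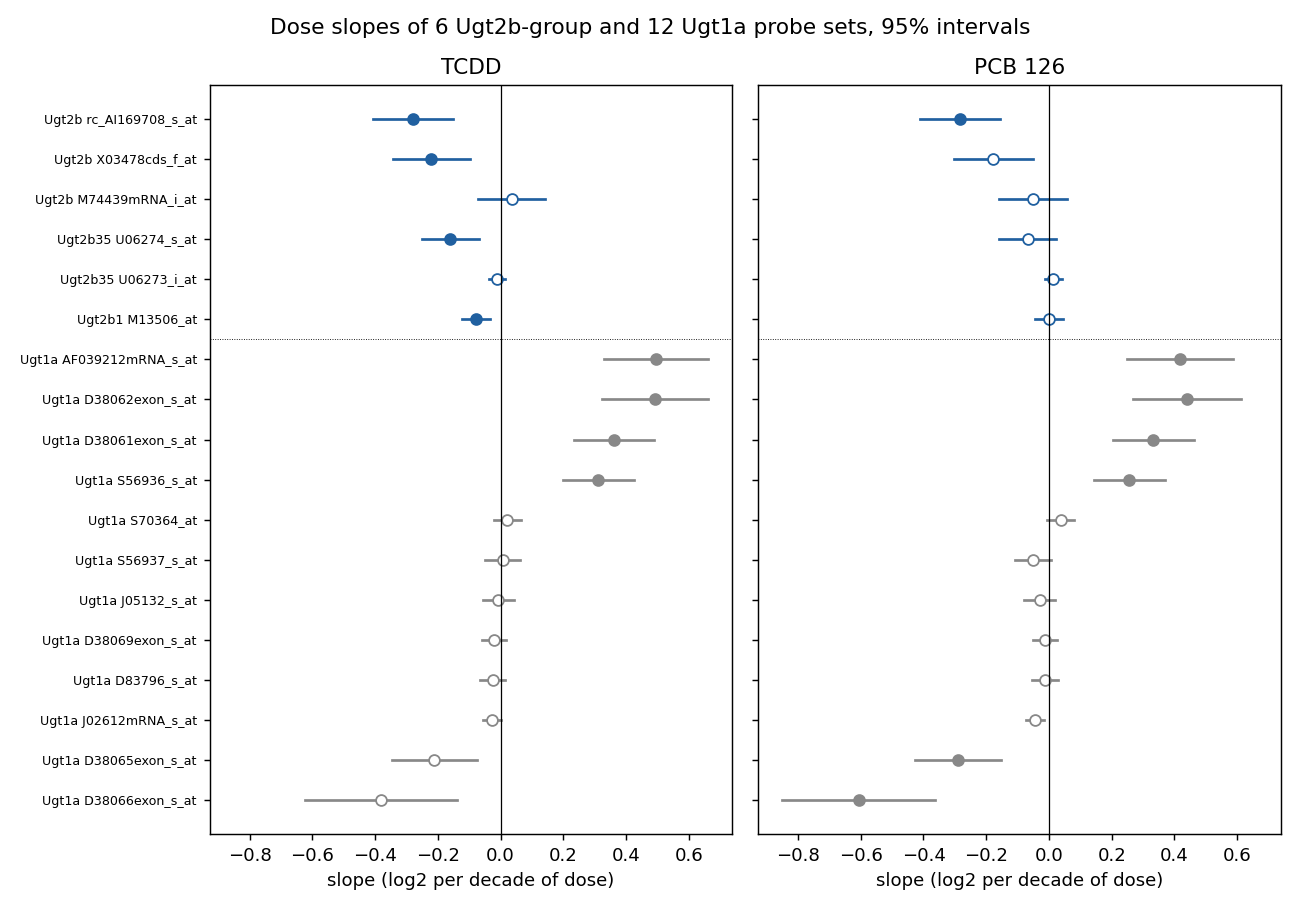
Dose slopes in log2 per decade (horizontal axis) with 95% intervals for 6 probe sets of Ugt2b, Ugt2b35 and Ugt2b1 (blue, above the dotted line) and 12 Ugt1a probe sets (grey), TCDD on the left and PCB 126 on the right; filled points have an adjusted p under 0.05. The 4 filled blue points with TCDD lie between -0.28 and -0.08, and 4 Ugt1a probe sets lie between 0.26 and 0.50 with both chemicals.

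The 2 highest doses of each chemical were set against vehicle. With 10 and 316 nM TCDD, rc_AI169708_s_at was -1.81 ± 0.47 log2 against vehicle, a ratio of 0.285 (95% interval 0.141 to 0.573, limma adjusted p = 0.0655). With 1000 and 10000 nM PCB 126 it was -1.87 ± 0.47, a ratio of 0.273 (0.136 to 0.551, adjusted p = 0.0452), the 1 call among the members. X03478cds_f_at stood at -1.42 ± 0.44 with TCDD and -1.03 ± 0.44 with PCB 126 (adjusted p = 0.138 and 0.311). U06274_s_at stood at -0.53 ± 0.35 and -0.32 ± 0.35 (adjusted p = 0.681 and 0.899). Without 1 array the TCDD value ran from -0.72 to -0.35, and the PCB 126 value from -0.68 without 1000 nM of pool 2 to 0.03 without 1000 nM of pool 1, so its sign rests on that array. Over all probe sets 0.904% were called lower and 1.35% higher with high TCDD, and 1.48% lower and 1.56% higher with high PCB 126. The PCB 126 call was lost in 16 of 26 refits that left out 1 array and when arrays were centred on their medians, and the TCDD call was gained in 5, so at these doses both chemicals lie at the edge of the threshold.

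Dose by dose, 1 of 84 member tests against vehicle was called, rc_AI169708_s_at at 10000 nM PCB 126 with -2.18 ± 0.55 log2 (limma adjusted p = 0.0436), and 13 had an unadjusted p under 0.05, where 7.49% of all tests did. Over all probe sets and the 14 contrasts, 0.400% were called lower. Its difference was -1.52 ± 0.55 at 0.1 nM, -1.68 ± 0.68 at 1 nM, -1.85 ± 0.55 at 10 nM and -1.78 ± 0.55 at 316 nM TCDD (adjusted p 0.123 to 0.500). With PCB 126 it was -1.90 ± 0.55 at 10 nM and -1.56 ± 0.55 at 1000 nM (adjusted p = 0.132 and 0.272). The 4 TCDD doses differ from each other by less than these standard errors, so no order among them can be read.

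The responses to the 2 chemicals were compared directly. Slopes with TCDD minus slopes with PCB 126 were not called for any member, nor for any of the 5197 probe sets (0% called; 342 had an unadjusted p under 0.05 in limma). For rc_AI169708_s_at the difference was 0.00 log2 per decade with a 95% interval from -0.18 to 0.18. For Ugt2b1 it was -0.08 ± 0.03 (95% interval -0.14 to -0.02, unadjusted p = 0.0172, adjusted p = 0.577), the 1 member of 6 under 0.05 before adjustment. For U06274_s_at it was -0.09 with an interval from -0.22 to 0.04. A difference that misses the threshold does not show that the chemicals act alike.

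At the 5 doses given of both chemicals, 0 of 30 member tests were called, where 0.531% of all tests were, and 4 had an unadjusted p under 0.05, where 6.57% of all tests did. Of the 138 calls over all probe sets, 136 were at 10 pM, where the TCDD array had a beta-actin 3′ minus 5′ difference of 2.19 and the PCB 126 array 1.36, and 2 were at 0.1 nM. Ugt2b1 was higher with TCDD than with PCB 126 at 1 pM by 0.62 ± 0.17 log2 (limma unadjusted p = 0.00223, adjusted p = 0.970), with 5.29 and 5.17 log2 in TCDD cultures against 4.62 and 4.60 in PCB 126 cultures. At 10 pM, with 1 array each, it was 5.25 with TCDD and 4.58 with PCB 126 (adjusted p = 0.180). At 0.1 nM, rc_AI169708_s_at was -1.17 ± 0.55 log2 with TCDD against PCB 126 (95% interval -2.34 to 0.00, adjusted p = 0.338). That difference came from pool 1, at 5.69 with TCDD and 7.81 with PCB 126, more than from pool 2, at 9.38 and 9.59. At 10 nM the same difference was 0.05 ± 0.55, with an interval from -1.12 to 1.22.

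The pools differed in level in 5 of 6 member probe sets. Pool 2 minus pool 1 was 2.15 ± 0.21 log2 for rc_AI169708_s_at, 1.44 ± 0.21 for X03478cds_f_at and 0.52 ± 0.15 for U06274_s_at (limma adjusted p 6.11e-09, 8.42e-07 and 0.00327). The dim sets M74439mRNA_i_at and U06273_i_at were lower in pool 2, by -0.77 ± 0.18 and -0.30 ± 0.04. These 3 higher and 2 lower calls stand against 40.0% and 39.7% of all probe sets, so a pool difference is common on these arrays. With arrays centred on their medians, U06273_i_at was no longer called. The slopes did not differ between pools for any member, where 0% of all probe sets were called with TCDD and 0.0385% with PCB 126. For rc_AI169708_s_at the slope was -0.25 ± 0.09 in pool 2 and -0.31 ± 0.09 in pool 1 with TCDD, and -0.27 ± 0.09 in pool 2 and -0.30 ± 0.09 in pool 1 with PCB 126 (unadjusted p 0.0026 to 0.0101, adjusted p 0.0555 to 0.396).

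The Ugt1a locus moved in several directions on the same arrays. Of its 12 kept probe sets, AF039212mRNA_s_at, D38061exon_s_at, D38062exon_s_at and S56936_s_at rose, with slopes of 0.31 to 0.50 log2 per decade of TCDD and 0.26 to 0.44 of PCB 126. Each of these lists several Ugt1a genes, so no single gene is named for it. D38062exon_s_at averaged 4.03 ± 0.45 log2 above vehicle at the high TCDD doses and 4.22 ± 0.45 at the high PCB 126 doses (limma adjusted p = 0.000681 and 0.00035). D38065exon_s_at and D38066exon_s_at fell at the high doses, by 1.64 and 2.49 log2 with TCDD and by 1.77 and 3.34 with PCB 126, and the other 6 were called in neither trend. In the dose trends, 0 of the 12 were called lower with TCDD and 2 with PCB 126. At the high doses the locus thus held probe sets that fell as well as probe sets that rose.

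**Figure D3:**
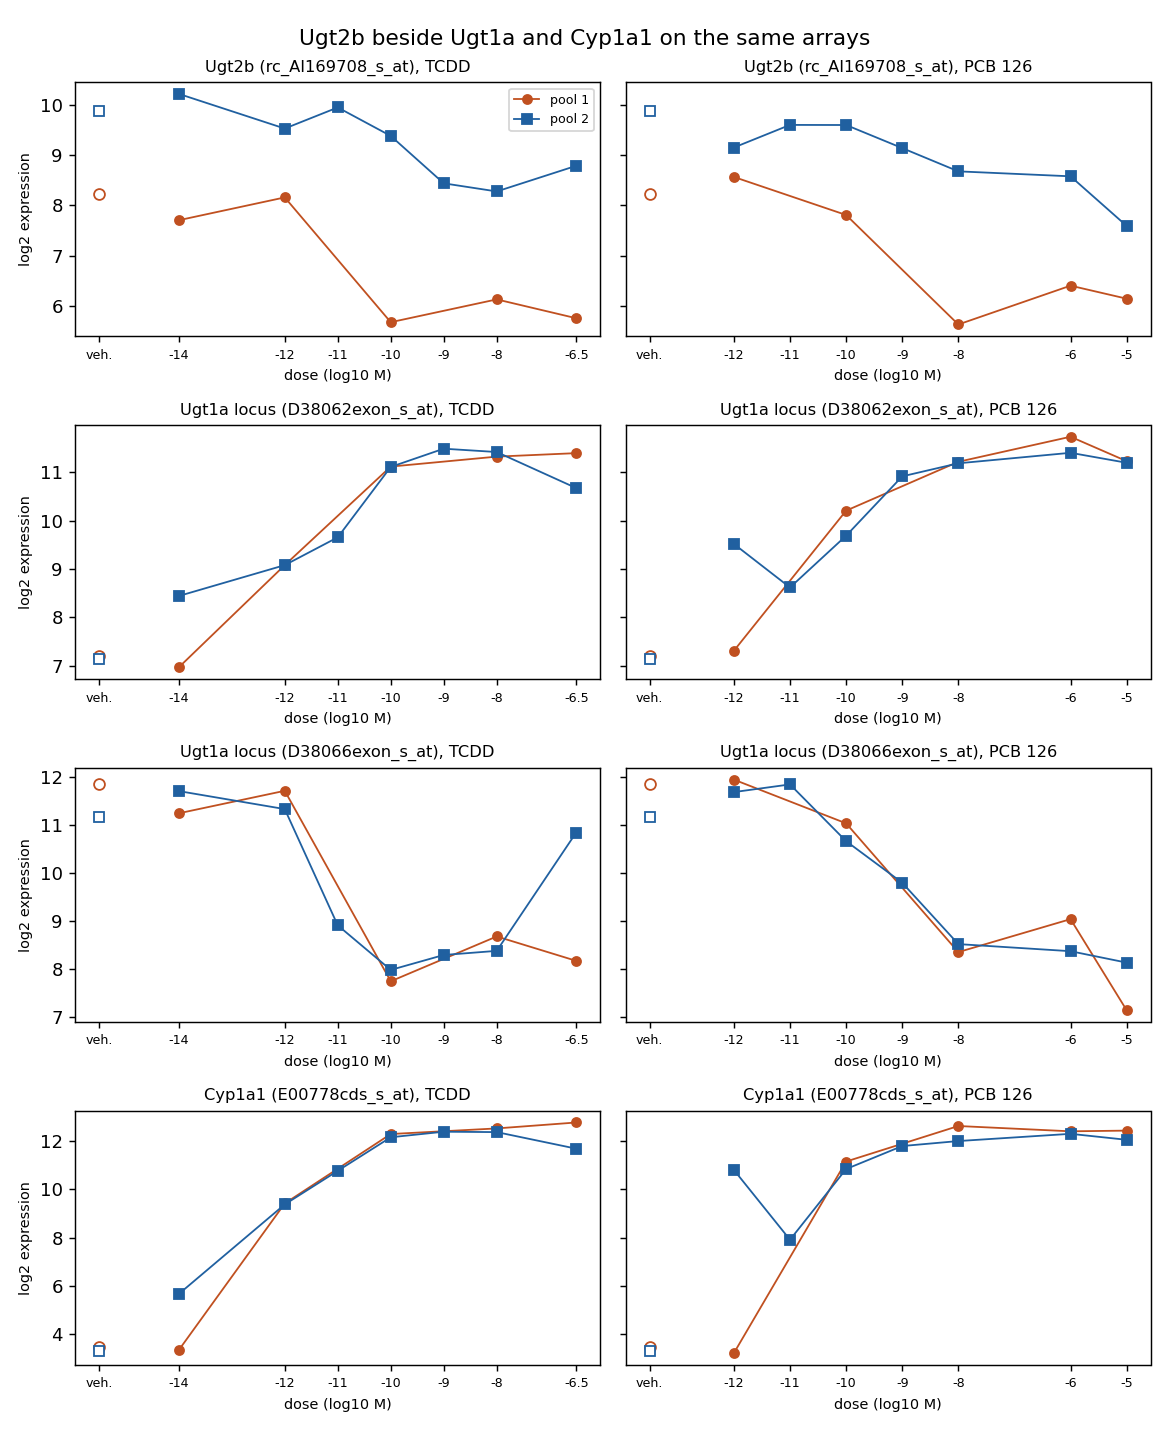
Log2 expression (vertical axis) against dose in log10 M (horizontal axis) of Ugt2b (rc_AI169708_s_at), 2 Ugt1a probe sets and Cyp1a1, TCDD on the left and PCB 126 on the right, with 1 point per array; circles are pool 1, squares pool 2, and open symbols vehicle. D38062exon_s_at rises with both chemicals and the pools overlap. Ugt2b falls, with a level 2.15 log2 higher in pool 2 in the trend model. Its pools overlap in range, from 5.64 to 8.57 in pool 1 and from 7.60 to 10.21 log2 in pool 2.

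Slopes of the members were set against that of the Ugt1a probe set with the highest mean, J02612mRNA_s_at, which itself had slopes of -0.03 ± 0.01 with TCDD and -0.04 ± 0.01 with PCB 126 (adjusted p = 0.344 and 0.0743). At the high PCB 126 doses it stood at 0.815 of vehicle (95% interval 0.703 to 0.944, adjusted p = 0.165), and with Cyp1a1 it correlated at r = -0.65. Against it, rc_AI169708_s_at was lower by -0.25 ± 0.06 log2 per decade of TCDD (limma adjusted p = 0.0154) and by -0.24 ± 0.06 of PCB 126 (adjusted p = 0.0099). It was the 1 member called lower with each chemical, where 0.654% of all probe sets were with TCDD and 2.10% with PCB 126. As the slopes of J02612mRNA_s_at were small, these differences largely restate the member's own slopes and are no contrast with a rising Ugt1a probe set. U06273_i_at was called higher with PCB 126 by 0.06 ± 0.02 (adjusted p = 0.0186), where 34.6% of all were, a share that gives this call little weight. Against the rising D38062exon_s_at all 6 members were lower with both chemicals, and so were 99.4% of all probe sets with TCDD and 99.3% with PCB 126, so this contrast says that D38062exon_s_at rose and nothing particular to the members.

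On single arrays, levels in the bright Ugt2b probe sets ran against those of Cyp1a1, and those in the dim one did not. Deviations from pool means of rc_AI169708_s_at and of Cyp1a1 correlated at r = -0.77 over 26 arrays, of X03478cds_f_at at -0.68, of U06274_s_at at -0.53, of Ugt2b1 at -0.09, of U06273_i_at at -0.03 and of M74439mRNA_i_at at 0.00. The rising Ugt1a probe set D38062exon_s_at correlated with Cyp1a1 at 0.97 and the falling D38066exon_s_at at -0.75. These are descriptions over arrays that share 2 pools and 1 dose axis. On the array of PCB 126 at 1 pM in pool 2, where Cyp1a1 was at 10.80, rc_AI169708_s_at lay 0.73 below its own vehicle, and in pool 1 at the same dose, with Cyp1a1 at 3.21, it lay 0.33 above it.

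The genes whose pattern was most like that of each member were taken from 3031 other genes by the correlation of deviations from pool means over 26 arrays. For Ugt2b they were Serpina3c, a serine protease inhibitor (r = 0.95), Aldh1a1, a retinaldehyde dehydrogenase (r = 0.95), and Cyp2c12, a steroid hydroxylase typical of female rat liver (r = 0.94). Their slopes with TCDD were -0.24, -0.29 and -0.53, and with PCB 126 -0.32, -0.26 and -0.39 log2 per decade, all called (limma adjusted p 0.00495 to 0.0374). As these genes were picked by likeness over the same arrays, such slopes are descriptions and no separate support for the fall of Ugt2b. For Ugt2b35 they were the epoxide hydrolase Ephx1 (r = 0.83), the glutathione transferase Gstm1 (r = 0.80) and the aldehyde reductase Akr7a3 (r = 0.74). For Ugt2b1 they were the immunophilin Fkbp3 (r = 0.78), the flavin monooxygenase Fmo1 (r = 0.76) and the glycerol channel Aqp9 (r = 0.74), none of them called in either trend.

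Other genes of glucuronidation moved little. Of 20 listed, 8 had a kept probe set of their own, with median slopes of 0.00 with TCDD and 0.02 with PCB 126. With TCDD 0 were called, where 1.46% of all probe sets were called lower and 1.64% higher. With PCB 126 1 was called higher, where 1.56% of all were, and 0 lower, where 2.69% were. The 1 call was Abcc2, the canalicular pump for conjugates, with 0.11 ± 0.03 log2 per decade of PCB 126 (limma adjusted p = 0.0269) and 0.09 ± 0.03 of TCDD (adjusted p = 0.0936). Slc35b1, a nucleotide transporter, had 0.09 ± 0.04 with TCDD (adjusted p = 0.314), and Ugdh, which makes UDP-glucuronic acid, 0.05 ± 0.04 with TCDD and 0.07 ± 0.04 with PCB 126 (adjusted p = 0.57 and 0.354). Ugt2b15, a neighbour of Ugt2b in the cluster whose promoter holds the same run of 31 letters, had slopes of -0.07 ± 0.04 and -0.02 ± 0.04 (adjusted p = 0.511 and 0.77). Its probe set, M31109_f_at, carries the suffix _f, so signal from other Ugt2b genes cannot be told apart in these slopes either.

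Sulfotransferases, the other main conjugating enzymes, were listed together with Papss1 and Papss2, which make their sulfate donor. Of the 16 genes listed, 8 were measured. Of these, 2 were called lower with TCDD, where 1.46% of all probe sets were, and 3 with PCB 126, where 2.69% were. With either chemical 0 were called higher, where 1.64% of all were with TCDD and 1.56% with PCB 126. The median slopes were -0.09 and -0.05. Sult1b1, which acts on thyroid hormones, had -0.46 ± 0.08 log2 per decade of TCDD and -0.31 ± 0.09 of PCB 126 (limma adjusted p = 0.00417 and 0.0371). Sult1a1, the phenol sulfotransferase, had -0.15 ± 0.03 and -0.14 ± 0.04 (adjusted p = 0.0176 and 0.0222). Papss1, which makes the sulfate donor, was called with PCB 126 at -0.15 ± 0.04 (adjusted p = 0.0473) and stood at -0.05 ± 0.04 with TCDD (adjusted p = 0.705). Sult2a2, a hydroxysteroid sulfotransferase, had -0.13 ± 0.04 with TCDD (adjusted p = 0.0971).

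Of 17 transcription factors listed for their action on Ugt2b promoters or on the AhR pathway, 8 were measured. Of these, 2 were called higher with TCDD, where 1.64% of all probe sets were, and 1 with PCB 126, where 1.56% were. With either chemical 0 were called lower, where 1.46% of all were with TCDD and 2.69% with PCB 126. Cebpb, a bZIP factor of liver inflammation, had slopes of 0.30 ± 0.05 log2 per decade of TCDD and 0.24 ± 0.05 of PCB 126, both called higher (limma adjusted p = 0.00335 and 0.0105). Ahr, the receptor itself, rose by 0.14 ± 0.03 with TCDD (adjusted p = 0.0143) and had 0.11 ± 0.03 with PCB 126 (adjusted p = 0.0646). Hnf4a, a master regulator of hepatocyte genes, had slopes of 0.02 ± 0.03 and -0.02 ± 0.03 (adjusted p = 0.824 and 0.745). Nfe2l2, the regulator of antioxidant genes, had 0.09 ± 0.04 with TCDD (adjusted p = 0.246), and Foxa2, a pioneer factor of liver genes, had -0.06 ± 0.04 with PCB 126 (adjusted p = 0.4). The 5 measured genes of the AhR battery were all called higher with TCDD, Cyp1a1 among them at 0.99 ± 0.21 (adjusted p = 0.00969), and 4 of 5 with PCB 126, where Cyp1a1 had 0.73 ± 0.21 (adjusted p = 0.0535).

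Albumin, the defining hepatocyte product, read between 13.72 and 14.50 log2 on all arrays. The mean of 11 hepatocyte markers was 9.97 to 10.39 log2 at the high TCDD doses and 10.25 to 10.50 at the high PCB 126 doses, against 10.21 to 10.46 in vehicle. Of these, Cps1 and Cyp2e1 were called lower with TCDD, and Apob and Tat higher with PCB 126. Over all probe sets, 1.46% were called lower and 1.64% higher with TCDD, and 2.69% and 1.56% with PCB 126. Before adjustment the limma p was under 0.05 for 4 of 11 with TCDD and 8 with PCB 126, in both directions. Over all 5197 probe sets it was for 753 and 877. Among 4 measured markers of macrophages Lyz2 was lower with both chemicals, at -0.19 ± 0.04 and -0.17 ± 0.04 log2 per decade (limma adjusted p = 0.00915 and 0.0222). Cd14 had 0.13 ± 0.04 and 0.07 ± 0.04 (adjusted p = 0.105 and 0.384), Ptprc -0.02 and 0.05, and Aif1 0.01 and 0.03. The median slope of the 4 was -0.01 with TCDD and 0.04 with PCB 126, and the list averaged 4.98 to 5.20 and 5.18 to 5.40 at the high doses, against 5.27 to 5.59 in vehicle. Among 5 of stellate cells Tagln was called lower with PCB 126 and none was called with TCDD, and their median slope was 0.00 with both chemicals. Of 2 endothelial and 2 bile duct markers none was called. The defining markers Csf1r, Clec4f, Pecam1, Vwf, Pdgfrb and Krt19 stayed under the filter, and the part of these shifts in the Ugt2b slopes was not tested.

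**Figure D4:**
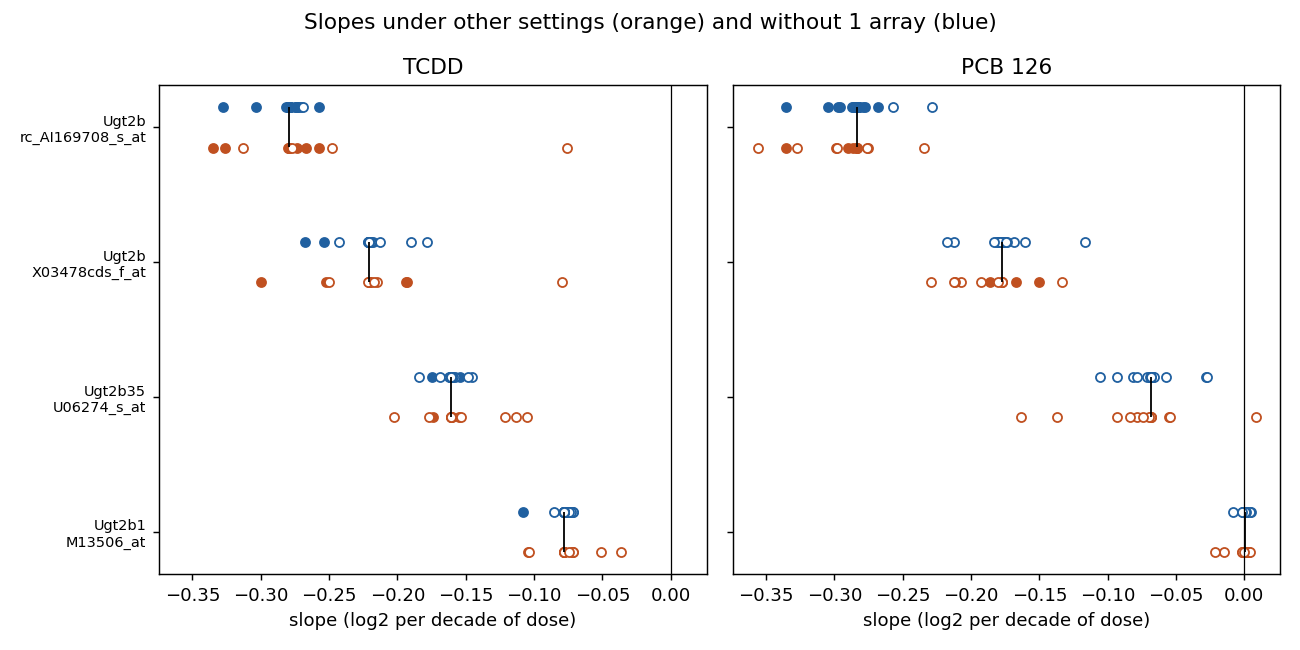
Slopes of 4 probe sets in log2 per decade (horizontal axis) as reported (black bars), with 1 of 26 arrays left out (blue) and under 13 other settings (orange), TCDD on the left and PCB 126 on the right; filled points have an adjusted p under 0.05. Every TCDD slope of these 4 is below 0, and most points of U06274_s_at and M13506_at are open.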

How the data were processed

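The authors deposited log2 expression values, 1 column for each of 26 arrays, from -1.43 to 15.01. Per the submitters' processing notes, the tools were GCRMA 2.8.0 and RMA, with neither settings nor the role of RMA stated there. GCRMA compresses differences between dim values. Each array's group, dose and pool come from the labels. Of 8799 probe sets 59 controls were left out, and 5197 whose second-highest value exceeded 3.71 log2, the median of all other values, were kept. Genes come from the platform's probe set annotation (7006 probe sets with 1 symbol, 308 with several, 1426 not listed).

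Slopes per decade of dose were fitted with limma 3.58.1 (R 4.3.3) on all arrays, with an intercept per chemical and vehicle and with pool as a block, and eBayes with trend and robust settings. Group contrasts used a second fit with 1 mean per group. Both were tested on simulated data. Calls are at a Benjamini-Hochberg adjusted p under 0.05. A gene was represented by its kept probe set with the highest mean. All member and Ugt1a probe sets are named, with the 3 most alike genes per member and up to 4 members of each list with the smallest p. Hnf4a, albumin and Cyp1a1 are named outside that rule. Members and lists were chosen with earlier results of these data known. Alternatives changed the block, scaling, filter, doses, arrays and Ugt1a reference.

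The labels tie arrays of a pool to the same animals, and in the 11 groups with both pools the pool differences correlated between groups at r = 0.461 to 0.892. Each pool is 1 biological unit, and the p values cover only the spread between arrays, whose number limits the precision.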

Additional observations from a re-analysis of the deposited data

How the results depend on the processing

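Of 2328 refitted values of single member probe sets, 2142 stayed on their side of the threshold with no called change of sign, 113 lost a call, 47 gained one and 26 changed sign where the value as reported or the refitted one was called; 73 other values changed sign with no call. Of the 26, 23 were called in the refit and 3, given here with their adjusted p, only as reported. All 26 came from another Ugt1a probe set as the reference, the slope difference then following that probe set's own slope. Against D38062exon_s_at the reversed values were -0.46 for M74439mRNA_i_at and -0.50 for U06273_i_at with TCDD, and -0.44 for M13506_at and -0.43 for U06273_i_at with PCB 126. Against AF039212mRNA_s_at the reversed values were -0.46 for M74439mRNA_i_at and -0.51 for U06273_i_at with TCDD, and -0.42 for M13506_at and -0.40 for U06273_i_at with PCB 126. Against D38061exon_s_at the reversed values were -0.33 for M74439mRNA_i_at and -0.37 for U06273_i_at with TCDD, and -0.33 for M13506_at and -0.32 for U06273_i_at with PCB 126. Against S56936_s_at the reversed values were -0.28 for M74439mRNA_i_at and -0.32 for U06273_i_at with TCDD, and -0.26 for M13506_at and -0.24 for U06273_i_at with PCB 126. Against D38066exon_s_at the reversed values were 0.30 for M13506_at and 0.10 for rc_AI169708_s_at (adjusted p = 0.422) with TCDD, and 0.56 for M74439mRNA_i_at, 0.32 for rc_AI169708_s_at, 0.54 for U06274_s_at and 0.43 for X03478cds_f_at with PCB 126. Against D38065exon_s_at the reversed values were 0.24 for M74439mRNA_i_at, 0.0074 for rc_AI169708_s_at (adjusted p = 0.926) and 0.22 for U06274_s_at with PCB 126. Against S70364_at the reversed values were -0.024 for U06273_i_at (adjusted p = 0.630) with PCB 126. With that change the count of members called lower became 6 with both chemicals against each of D38062exon_s_at, AF039212mRNA_s_at, D38061exon_s_at and S56936_s_at and 0 against D38066exon_s_at and D38065exon_s_at, where 3 and 2 were called higher with TCDD and 6 and 4 with PCB 126. Against S56937_s_at and J05132_s_at 2 were called lower with TCDD, and the 1 higher call with PCB 126 went to 0 under every other reference but D38066exon_s_at and D38065exon_s_at.

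In the TCDD trend the 4 calls became 0 with no replicate block, with arrays at 0.1 nM and above only and with pool 1 alone. They became 1 with arrays centred on their medians, with no filter, with arrays of the chemical alone, with doses of both pools and with pool 2 alone, and 2 when vehicle entered the slope 1 decade under the lowest dose and without the highest dose. Leaving out 1 array gave 0 to 4, and 2 or fewer without 0.01 pM of pool 2, 1 pM or 10 nM of either pool, 1 nM of pool 2 or 316 nM of pool 1 of TCDD, or 10 pM, 0.1 nM, 1 nM, 10 nM or 1000 nM of pool 2 of PCB 126. In the PCB 126 trend the 1 call became 0 with no replicate block, without the highest dose, with arrays at 0.1 nM and above only and with pool 1 alone, 2 with arrays of the chemical alone and with vehicle 1 decade below, and 0 to 2 without 1 array, with 2 when 10 nM TCDD of pool 1 was left out. At high PCB 126 it became 0 with no replicate block, with centred arrays and with no filter, and ran from 0 to 1 without 1 array, with 0 when any array of vehicle, of 0.01 pM, 1 pM or 10 nM TCDD or of 0.1, 10, 1000 or 10000 nM PCB 126 was left out. At high TCDD it ran from 0 to 1, with 1 without either array of 0.1 nM TCDD or 1 pM PCB 126 or without 316 nM TCDD of pool 2. At 0.1 nM of both chemicals it ran from 0 to 1 in each direction, with 1 without TCDD of pool 2. Against J02612mRNA_s_at the calls became 0 with no replicate block, and without 1 array ran from 0 to 2 lower with each chemical and 0 to 1 higher with PCB 126. The TCDD count was 0 without 316 nM TCDD of pool 1 and 2 without 316 nM TCDD of pool 2 or 1000 nM PCB 126 of pool 1. The PCB 126 count was 0 without 1 pM of pool 1 and 2 without 10 nM TCDD or 10000 nM PCB 126 of pool 1, and the higher call was lost without 1 pM of pool 1 or 10000 nM of pool 2. Centring left 1 of 2 lower calls between pools. With either pool alone, rc_AI169708_s_at lost its call in the trends of both chemicals. The call present with pool 2 alone was that of X03478cds_f_at, in both trends. The pool is a block because arrays of a pool share animals. The limit to 0.1 nM and above was chosen after seeing the data. The cause of these changes was not tested.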
